A study of Homo sapiens with 12 samples.

Results

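Ribosome biogenesis and RNA polymerase I genes were followed by RNA sequencing in PEO1 cells, an established line from a human ovarian cancer. The group holds 39 genes, chosen by name from the 57773 entries of the deposited count table, and all 39 passed the filter on low counts that left 15715 genes for testing. Cells labelled pLKO.1 held the empty vector (control vector) and those labelled shp53 a hairpin that silences p53 (knockdown), and all grew in 10% serum with 2 μg/mL puromycin. Each kind of cell was sampled untreated (0 h) and after 48 h in 10 μM fulvestrant, an estrogen receptor antagonist, which makes 4 groups of 3 libraries. Estradiol (E2) at 100 pM was given along with fulvestrant, and the protocol does not say whether untreated cells received it, so drug, time in culture and estradiol cannot be told apart. The labels do not state whether replicate libraries are separate cultures, and p-values therefore reflect the variation among these samples alone, which could be technical.

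Ribosomes are built in the nucleolus. RNA polymerase I (Pol I) transcribes the ribosomal DNA into a long precursor, which small nucleolar ribonucleoproteins modify, which nucleases and helicases trim, and which assembly factors fold with ribosomal proteins into the small and large subunits. The nucleolus is commonly enlarged in cancer cells, and MYC is known to bind E-boxes (CACGTG) in the promoters of many genes of this pathway.

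All 39 genes had log2 fold changes below 0 after fulvestrant, whichever vector the cells carried, and most passed the test. In control-vector cells 29 of 39 fell and 0 rose, with a median log2 fold change of -0.46. In knockdown cells 35 fell and 0 rose, with a median of -0.66. Under fulvestrant 10 of the 39 were lower in knockdown than in control-vector cells, and before treatment none passed. Over all genes tested, 14.3% fell and 13.4% rose in control-vector cells, 19.6% fell and 21.3% rose in knockdown cells, and 2.74% were lower in knockdown than in control-vector cells under fulvestrant. In bulk libraries scaled to a common total, fewer cells expressing a gene and less of its RNA per cell cannot be told apart. A gene counts as changed where its edgeR quasi-likelihood p-value, adjusted by Benjamini-Hochberg over the 15715 genes, is below 0.05. Levels are CPM, the counts of a library divided by its TMM-scaled size, given in the order of libraries 1, 2 and 3, and SE is an approximate standard error of the log2 fold change.

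The libraries held 21581887 to 28481541 counts. All 9 epithelial and ovarian carcinoma markers were tested, and their summed level was 5920 to 10400 CPM in every library. Of the markers of other cell types, 3 of 9 fibroblast, 3 of 9 leukocyte and 2 of 5 endothelial markers passed the filter, and COL3A1, LUM, CD3D, MS4A1, NKG7 and CLDN5 had 0 counts throughout. The summed leukocyte and endothelial markers were at 57.8 to 79.9 and 5.01 to 9.96 CPM. The summed fibroblast markers, mostly THY1, were at 230 to 256 CPM in untreated and 91.6 to 119 CPM in treated libraries, and their part in the results was not tested. The 13 mitochondrially encoded transcripts, used to judge library quality, had medians of 0.25 and 0.35 in the fulvestrant responses and 0.31 between knockdown and control vector under fulvestrant, and their part was not tested either.

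Libraries of one group differed along the GC content of the transcripts. The rank correlation between a library's deviation from its group mean and GC content, across genes, ran from -0.72 in fulvestrant-treated control-vector library 3 to 0.70 in fulvestrant-treated control-vector library 1. Members differed in this spread. The within-group SD on the log2 scale was 0.77 for BOP1, whose GC content was not known, 0.56 for MYBBP1A and for PPAN, with transcripts of 60.9% and 63.2% GC, and 0.33 for TCOF1 and for RRP9, against 0.04 for NCL and 0.03 for NOP14. Across the 38 members with a known GC content, its rank correlation with the SD was 0.26. The log2 fold change between knockdown and control vector under fulvestrant had a rank correlation with GC content of -0.41 across 15373 genes and of -0.58 across those members. Genes are not independent replicates, so these are descriptions.

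The promoters of the members are shown for the E-box and for the estrogen response element, because the treatment targets the estrogen receptor and because the genes moved together. RefSeq promoter windows (GRCh38.p14, 250 bases before to 50 after the start) matched 32 of 39 members. CACGTG, which reads the same on both strands, was in 11 of the 32 windows (34.4%), against 9.99% of 10454 windows of tested genes and 7.43% of all 27305 windows. The other genes of the pathway held it in 28.9% of 114 windows. Member windows were richer in GC, with a median of 63.8% against 58.3% for all windows, and the part of this in the E-box share was not tested. The estrogen response element, GGTCA and TGACC with any 3 bases between, searched on both strands and allowing overlap, was in 0 of 32 member windows and in 0.0659% of all windows, which says only that these letters are absent there. Stretches of 30 bases are printed on the strand of the gene with the motif in capitals. They are for the members called lower in both fulvestrant responses whose E-box begins within 50 bases of the start. NOP10, the one with a pair of E-boxes, is printed too.
NOP14, chr4:2963374-2963403, minus strand: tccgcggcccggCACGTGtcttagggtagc
FBL, chr19:39846356-39846385, minus strand: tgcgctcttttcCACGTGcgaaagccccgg
NAT10, chr11:34105602-34105631, plus strand: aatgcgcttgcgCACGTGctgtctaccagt
WDR43, chr2:28894658-28894687, plus strand: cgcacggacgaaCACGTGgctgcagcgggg
NOP2, chr12:6568242-6568271, minus strand: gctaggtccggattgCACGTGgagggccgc
BYSL, chr6:41921515-41921544, plus strand: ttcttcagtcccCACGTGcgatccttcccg
RRP9, chr3:51941892-51941921, minus strand: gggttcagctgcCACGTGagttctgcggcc
NOP10, chr15:34343289-34343318, minus strand: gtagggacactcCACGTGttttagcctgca
NOP10, chr15:34343130-34343159, minus strand: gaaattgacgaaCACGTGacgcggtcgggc

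Counted from 1 at the start site, the motif began at base 16 in NOP14, base 7 in FBL, base 4 in WDR43, base 29 in BYSL and base 36 in NOP2, and it began at base -5 in RRP9. In EBNA1BP2 it lay at the far end of the window, from base -237. PES1 and MYBBP1A also held it, from base 14 and base 28. Their stretches are not printed because they were called in knockdown cells alone. The members with and without an E-box had the same median log2 fold change in control-vector cells, -0.44. In knockdown cells the medians were -0.68 for the 11 members with the motif and -0.52 for the 21 without. NOP10, with 2 E-boxes, passed the test in neither response. Matches describe the letters in these windows and not binding.

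**Figure D1:**
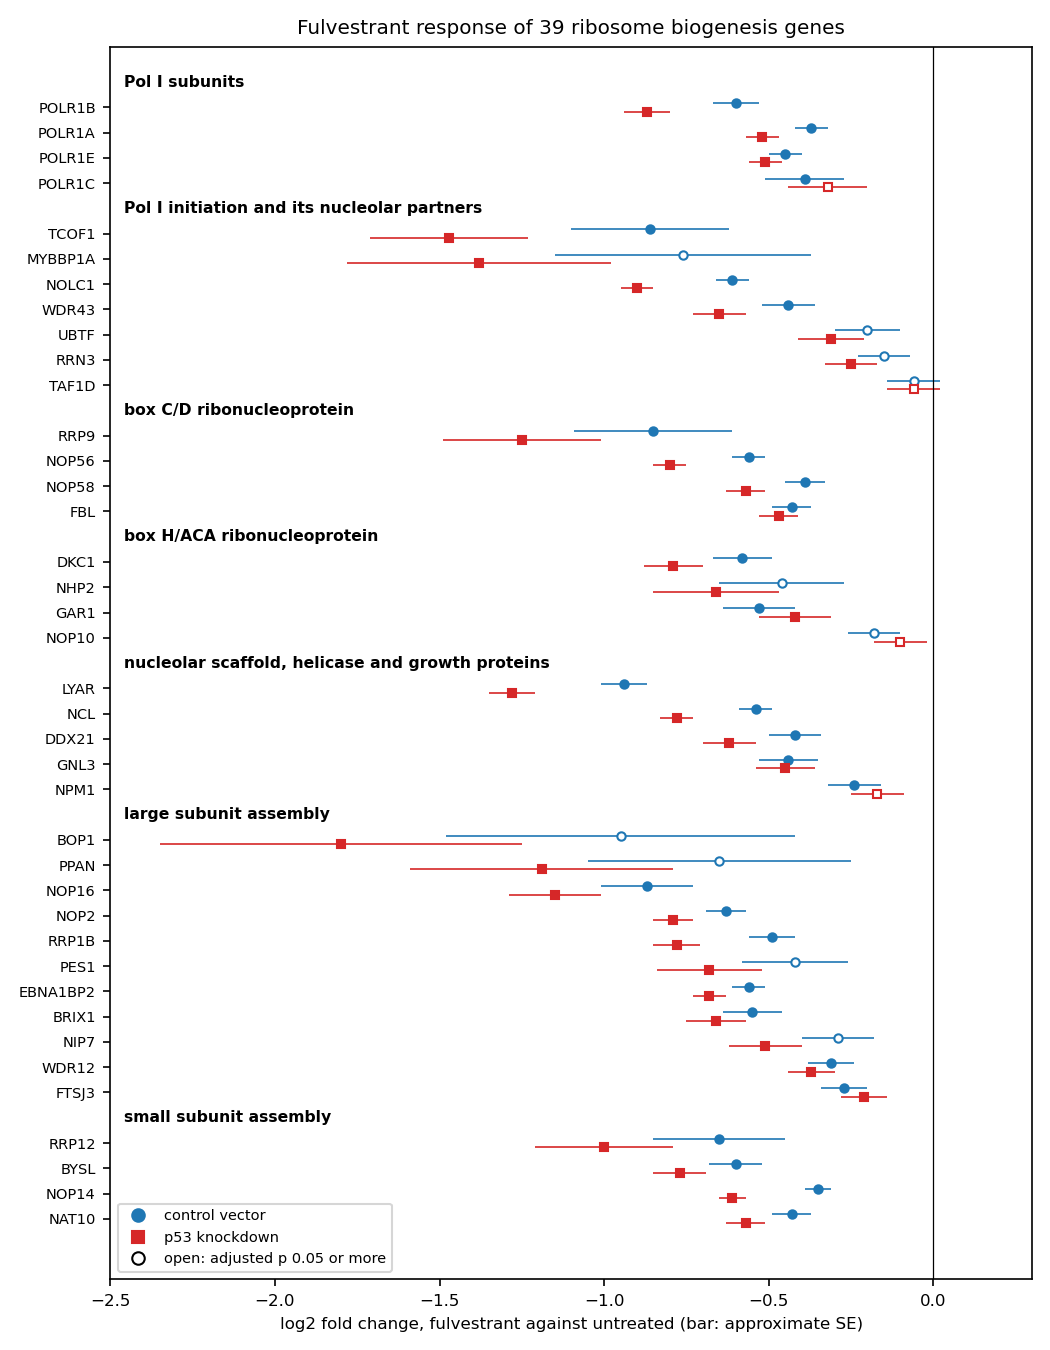
Log2 fold change of each of the 39 genes, fulvestrant against untreated, in control-vector cells (circles) and knockdown cells (squares), grouped by role, with bars for the approximate SE and open symbols for an adjusted p of 0.05 or more. All 39 values lie below 0 in both kinds of cell, with 29 and 35 filled symbols, and BOP1, MYBBP1A and PPAN have the widest bars.

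The subunits of Pol I fell in 4 of 4 genes in control-vector cells and in 3 of 4 in knockdown cells. POLR1A, which encodes the largest subunit, was at 141, 139 and 137 CPM in untreated control-vector cells and 110, 110 and 103 CPM after fulvestrant. The levels in knockdown cells were 145, 131 and 138 CPM untreated and 95.5, 93.9 and 99.8 CPM after fulvestrant. Every treated library lay below every untreated library. The log2 fold change was -0.37 (SE 0.05, edgeR adjusted p = 0.000401) in control-vector cells and -0.52 (SE 0.05, edgeR adjusted p = 1.88e-05) in knockdown cells. POLR1B, the second-largest subunit, had log2 fold changes of -0.60 and -0.87, and POLR1E of -0.45 and -0.51. POLR1C, a subunit shared with RNA polymerase III, had -0.39 (edgeR adjusted p = 0.0392) in control-vector cells and -0.32 (edgeR adjusted p = 0.0631) in knockdown cells, where the groups overlapped.

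Genes for Pol I initiation and its nucleolar partners were more mixed: 3 of 7 fell in control-vector cells and 6 of 7 in knockdown cells. UBTF, which encodes the factor that binds ribosomal DNA and holds it open, was at 165, 177 and 178 CPM in untreated control-vector cells and 163, 161 and 131 CPM after fulvestrant. Knockdown cells had 169, 179 and 174 CPM untreated and 154, 119 and 149 CPM after fulvestrant. The treated libraries were lower in both kinds of cell without overlap, but by little: the log2 fold change was -0.20 (SE 0.10, edgeR adjusted p = 0.196) and -0.31 (SE 0.10, edgeR adjusted p = 0.0345). RRN3, the initiation factor that ties Pol I to growth signals, was at 92.8, 87.5 and 82.1 CPM in untreated control-vector cells and 70.6, 83.4 and 82.3 CPM after fulvestrant. Its knockdown libraries were at 95.6, 91.2 and 87.1 CPM untreated and 74.2, 83.9 and 72.4 CPM after fulvestrant. The groups overlapped in control-vector cells (log2 fold change -0.15, edgeR adjusted p = 0.208) and not in knockdown cells (-0.25, edgeR adjusted p = 0.0320). RRN3 has near copies in the table, RRN3P1, RRN3P2 and RRN3P3, with 552, 31 and 943 counts over the 12 libraries beside 24298 for RRN3, so its counts are less certain. TAF1D, a subunit of the promoter selectivity complex, passed in neither kind of cell, with -0.06 in both.

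The partners NOLC1 and TCOF1 fell more. NOLC1, a nucleolar chaperone of small nucleolar ribonucleoproteins, was at 397, 362 and 356 CPM in untreated control-vector cells and 235, 242 and 251 CPM after fulvestrant. In knockdown cells it was at 359, 353 and 343 CPM untreated and 190, 192 and 183 CPM after fulvestrant. The 4 groups separated except for the 2 untreated ones. Its log2 fold change was -0.61 (SE 0.05, edgeR adjusted p = 1.72e-05) in control-vector cells and -0.90 (SE 0.05, edgeR adjusted p = 6.16e-07) in knockdown cells. TCOF1, which encodes treacle, a protein that brings Pol I and processing factors to ribosomal DNA, was at 220, 263 and 279 CPM in untreated control-vector cells and 174, 153 and 91.9 CPM after fulvestrant. Its knockdown libraries were at 227, 256 and 268 CPM untreated and 104, 65.4 and 103 CPM after fulvestrant. Treated libraries lay below untreated ones in both kinds of cell, with a wide spread among the treated. The log2 fold change was -0.86 (SE 0.24, edgeR adjusted p = 0.0218) and -1.47 (SE 0.24, edgeR adjusted p = 0.000871).

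MYBBP1A, a nucleolar protein that binds MYB and regulates rRNA synthesis, had a wide spread in every group. It was at 54.0, 82.8 and 93.6 CPM in untreated control-vector cells and 66.8, 48.7 and 20.7 CPM after fulvestrant, which overlap. The levels in knockdown cells were 58.9, 69.5 and 80.7 CPM untreated and 32.5, 17.3 and 30.6 CPM after fulvestrant, with no overlap. The log2 fold change was -0.76 (SE 0.39, edgeR adjusted p = 0.191) and -1.38 (SE 0.40, edgeR adjusted p = 0.0198). WDR43, which links Pol II and early rRNA processing, fell by 0.44 and 0.65 on the log2 scale.

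The box C/D ribonucleoprotein, which carries the methylation of rRNA, fell in 4 of 4 genes in both kinds of cell. NOP56, a core protein of the particle, was at 224, 205 and 203 CPM in untreated control-vector cells and 142, 142 and 145 CPM after fulvestrant. Knockdown cells had 206, 197 and 191 CPM untreated and 116, 114 and 111 CPM after fulvestrant. All treated libraries lay below all untreated ones, and the treated knockdown libraries below the treated control-vector ones. Its log2 fold change was -0.56 (SE 0.05, edgeR adjusted p = 2.85e-05) and -0.80 (SE 0.05, edgeR adjusted p = 1.09e-06). FBL, the methyltransferase fibrillarin, was at 259, 232 and 226 CPM in untreated control-vector cells and 174, 175 and 184 CPM after fulvestrant. In knockdown cells it was at 229, 226 and 209 CPM untreated and 157, 161 and 161 CPM after fulvestrant. Treatment separated both kinds of cell, with log2 fold changes of -0.43 (SE 0.06, edgeR adjusted p = 0.00041) and -0.47 (SE 0.06, edgeR adjusted p = 9.89e-05). NOP58 fell by 0.39 and 0.57. RRP9, the U3-specific protein, was at 21.0, 24.1 and 23.2 CPM in untreated control-vector cells and 15.5, 14.3 and 8.11 CPM after fulvestrant. Its knockdown libraries were at 19.9, 22.3 and 24.0 CPM untreated and 10.7, 6.59 and 10.7 CPM after fulvestrant, so 1 treated library in each kind of cell was lowest by far. Its log2 fold change was -0.85 (SE 0.24, edgeR adjusted p = 0.0233) and -1.25 (SE 0.24, edgeR adjusted p = 0.00224).

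The box H/ACA ribonucleoprotein, which carries pseudouridylation and protects telomerase RNA, fell in 2 of 4 genes in control-vector cells and in 3 of 4 in knockdown cells. DKC1, the pseudouridine synthase dyskerin, was at 243, 206 and 208 CPM in untreated control-vector cells and 138, 136 and 163 CPM after fulvestrant, and at 227, 218 and 204 CPM untreated and 121, 136 and 119 CPM treated in knockdown cells. Its log2 fold change was -0.58 and -0.79. GAR1 fell by 0.53 and 0.42, and the difference of those changes did not pass (edgeR adjusted p = 0.918). NHP2 had -0.46 (edgeR adjusted p = 0.106) and -0.66 (edgeR adjusted p = 0.0206). NOP10, the smallest protein of the particle, was at 58.4, 50.1 and 49.1 CPM in untreated control-vector cells and 43.8, 45.0 and 50.4 CPM after fulvestrant, which overlap, as do its knockdown groups. It is the member whose treated knockdown libraries, at 50.7, 51.2 and 52.6 CPM, lay above the treated control-vector ones.

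**Figure D2:**
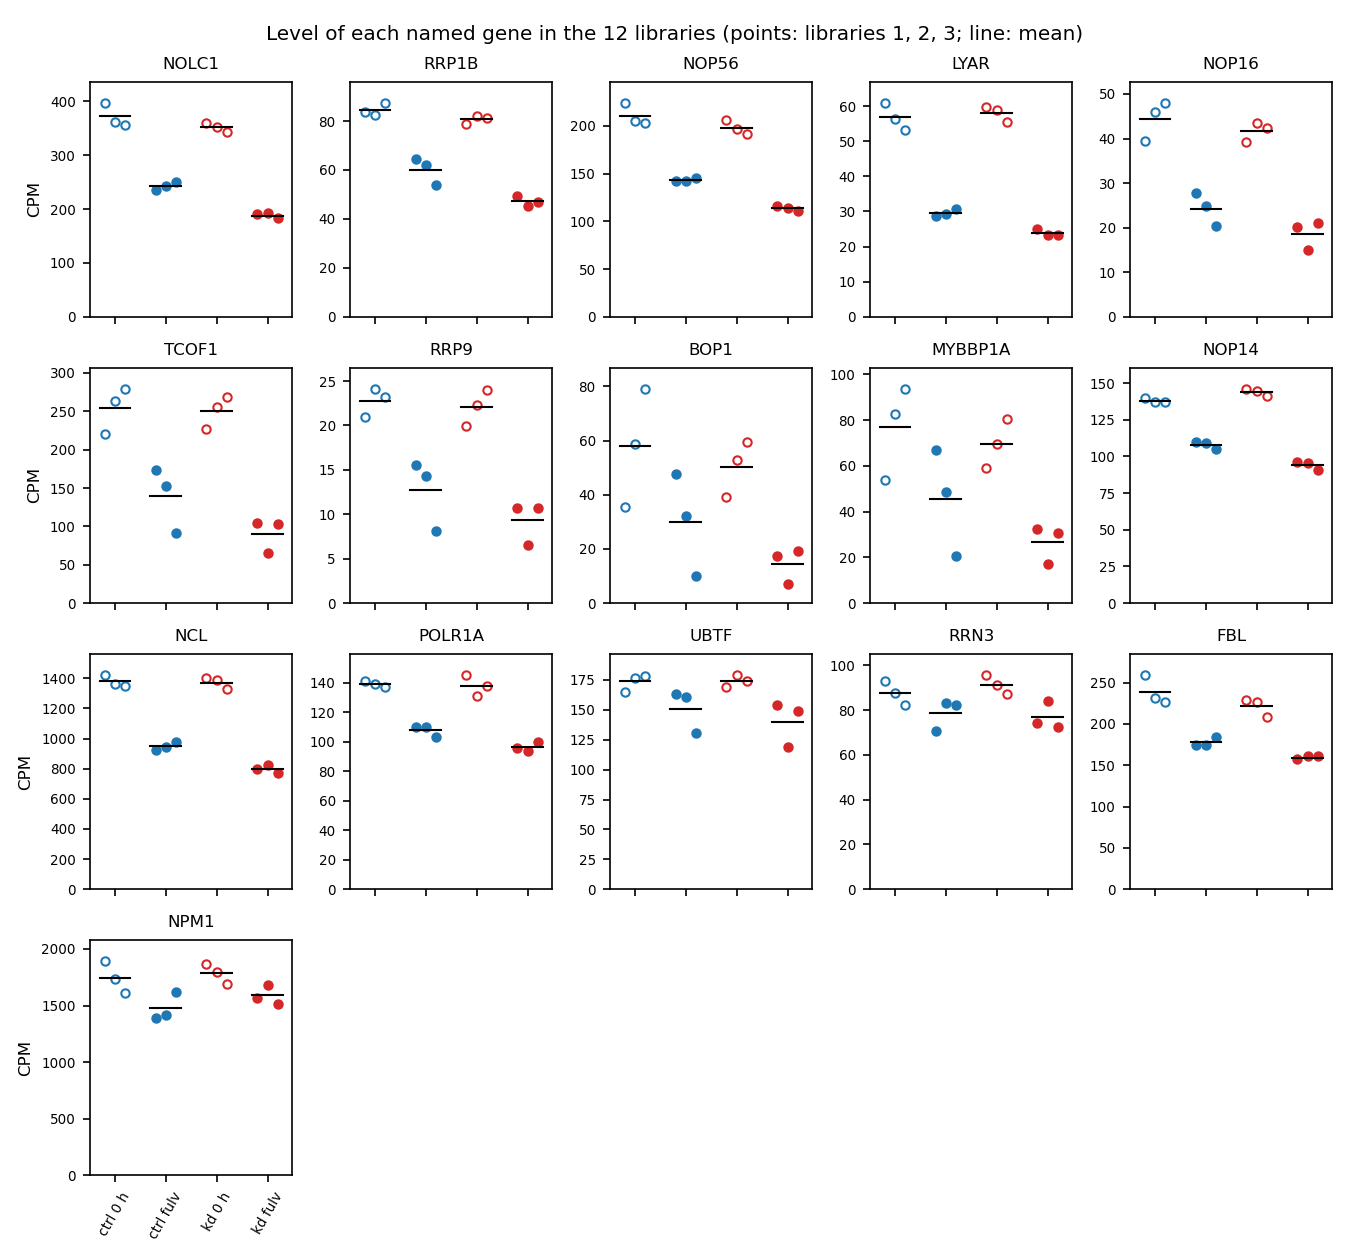
CPM of the 16 named genes in each of the 12 libraries (y axis from 0), with points for libraries 1, 2 and 3 from left to right, a line for the group mean, blue for control-vector (ctrl) and red for knockdown (kd) cells, open for untreated (0 h) and filled for fulvestrant (fulv). NOLC1, NOP56, LYAR, NOP14 and NCL separate by treatment and, among treated libraries, by vector, whereas BOP1 and MYBBP1A overlap in control-vector cells.

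Nucleolar scaffold, helicase and growth genes fell in 5 of 5 in control-vector cells and in 4 of 5 in knockdown cells. NCL, nucleolin, a histone and RNA chaperone of the nucleolus, was at 1420, 1360 and 1350 CPM in untreated control-vector cells and 925, 945 and 979 CPM after fulvestrant. The levels in knockdown cells were 1400, 1390 and 1330 CPM untreated and 796, 826 and 773 CPM after fulvestrant. Both kinds of cell separated by treatment, and the treated libraries by vector. Its log2 fold change was -0.54 (SE 0.05, edgeR adjusted p = 2.07e-05) and -0.78 (SE 0.05, edgeR adjusted p = 7.51e-07). NPM1, nucleophosmin, the scaffold of the outer nucleolar layer, was at 1890, 1730 and 1610 CPM in untreated control-vector cells and 1390, 1420 and 1620 CPM after fulvestrant. Knockdown cells had 1870, 1800 and 1690 CPM untreated and 1570, 1680 and 1510 CPM after fulvestrant. Its groups overlapped in control-vector cells, where it was called (-0.24 on the log2 scale, SE 0.08, edgeR adjusted p = 0.0432), and did not overlap in knockdown cells, where it was not called (-0.17, SE 0.08, edgeR adjusted p = 0.106). The difference between those 2 changes was 0.07 (SE 0.11, edgeR adjusted p = 0.922).

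LYAR, a nucleolar protein of growing cells, combined a large fall with a small SE. It was at 60.9, 56.4 and 53.2 CPM in untreated control-vector cells and 28.6, 29.4 and 30.8 CPM after fulvestrant. In knockdown cells it was at 59.8, 58.8 and 55.4 CPM untreated and 25.1, 23.3 and 23.2 CPM after fulvestrant. No treated library came near an untreated one, and the log2 fold change was -0.94 (SE 0.07, edgeR adjusted p = 5.52e-06) and -1.28 (SE 0.07, edgeR adjusted p = 3.5e-07). The RNA helicase DDX21 fell by 0.42 and 0.62, and GNL3, nucleostemin, by 0.44 and 0.45.

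Factors of large subunit assembly fell in 7 of 11 genes in control-vector cells and in 11 of 11 in knockdown cells. NOP16 was at 39.4, 46.0 and 48.0 CPM in untreated control-vector cells and 27.8, 24.9 and 20.3 CPM after fulvestrant. Its knockdown libraries were at 39.2, 43.5 and 42.3 CPM untreated and 20.1, 15.0 and 21.1 CPM after fulvestrant. Treatment separated both kinds of cell, with log2 fold changes of -0.87 (SE 0.14, edgeR adjusted p = 0.00121) and -1.15 (SE 0.14, edgeR adjusted p = 0.000107). RRP1B was at 83.6, 82.6 and 87.4 CPM in untreated control-vector cells and 64.4, 61.9 and 54.0 CPM after fulvestrant, and at 78.9, 81.9 and 81.3 CPM untreated and 49.5, 45.1 and 46.9 CPM treated in knockdown cells. Its 4 groups did not overlap in any of the pairwise comparisons. Between the untreated groups the difference did not pass (log2 fold change -0.07, SE 0.07, edgeR adjusted p = 0.971). The log2 fold change of RRP1B with fulvestrant was -0.49 (SE 0.07, edgeR adjusted p = 0.00037) and -0.78 (SE 0.07, edgeR adjusted p = 8.46e-06).

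BOP1, PES1 and WDR12 form the PeBoW complex of large subunit processing, and they differed in how well they were measured. BOP1 was at 35.5, 58.9 and 79.0 CPM in untreated control-vector cells and 47.6, 32.3 and 10.1 CPM after fulvestrant. The levels in knockdown cells were 39.1, 52.7 and 59.3 CPM untreated and 17.2, 7.09 and 19.3 CPM after fulvestrant. The control-vector groups overlapped and the knockdown groups did not, with log2 fold changes of -0.95 (SE 0.53, edgeR adjusted p = 0.229) and -1.80 (SE 0.55, edgeR adjusted p = 0.0252). PES1 had -0.42 (edgeR adjusted p = 0.0838) and -0.68 (edgeR adjusted p = 0.00763). WDR12, with the smallest spread of the 3, fell by 0.31 and 0.37. The rRNA methyltransferase gene NOP2 fell by 0.63 and 0.79, EBNA1BP2 by 0.56 and 0.68, BRIX1 by 0.55 and 0.66, and FTSJ3 by 0.27 and 0.21. NIP7 had -0.29 (edgeR adjusted p = 0.0646) and -0.51 (edgeR adjusted p = 0.00334), and PPAN -0.65 (edgeR adjusted p = 0.270) and -1.19 (edgeR adjusted p = 0.0385). PPAN overlaps a readthrough gene, PPAN-P2RY11, which had 7 counts over the 12 libraries beside 11249 for PPAN.

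Factors of small subunit assembly fell in 4 of 4 genes in both kinds of cell. NOP14 was at 140, 137 and 137 CPM in untreated control-vector cells and 110, 109 and 105 CPM after fulvestrant. Knockdown cells had 146, 145 and 141 CPM untreated and 96.5, 95.3 and 91.1 CPM after fulvestrant. It had the tightest libraries of the 39 genes, and its order was knockdown above control vector untreated and below it when treated, each without overlap. Its log2 fold change with fulvestrant was -0.35 (SE 0.04, edgeR adjusted p = 0.000171) and -0.61 (SE 0.04, edgeR adjusted p = 1.68e-06). NAT10, the rRNA acetyltransferase, fell by 0.43 and 0.57, BYSL by 0.60 and 0.77, and RRP12 by 0.65 (edgeR adjusted p = 0.0387) and 1.00 (edgeR adjusted p = 0.00332).

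Across the members, 27 genes were called lower in both responses, which is 27 of the 29 called in control-vector cells and 27 of the 35 called in knockdown cells. POLR1C and NPM1 were called in control-vector cells alone. UBTF, RRN3, MYBBP1A, NHP2, BOP1, PES1, PPAN and NIP7 were called in knockdown cells alone, and TAF1D and NOP10 in neither. Treated libraries lay wholly below untreated ones for 31 members in control-vector cells and 36 in knockdown cells, against 19.4% and 29.7% of all genes tested. Set against the mean of untreated control-vector cells, the median member stood at -0.47, -0.45 and -0.43 (log2) in the treated control-vector libraries and at -0.72, -0.69 and -0.65 in the treated knockdown libraries. The untreated libraries were at 0.07, 0.00 and -0.06 in control-vector cells and -0.02, -0.03 and -0.05 in knockdown cells, so every treated library's median lay below every untreated one. An alternative added after seeing the data left out the 4 libraries farthest along the GC trend. They were the library of each group with the lowest rank correlation with GC content. That fit gave 35 and 36 members lower and 0 higher, where 19.1% and 26.8% of all genes were lower. With an offset for GC content 37 of 38 members were lower in each kind of cell, all but FTSJ3, where 23.9% and 28.3% of all genes were lower.

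Some of these calls were lost when 1 library was left out, also where that library was outside the comparison. Without treated knockdown library 1, NPM1 in control-vector cells had -0.23 (edgeR adjusted p = 0.109), against -0.24 with all libraries. RRP12 kept -0.65 in control-vector cells without untreated knockdown library 1, 2 or 3, though its call was lost. NPM1 in control-vector cells lost its call in 9 of the 12 fits that left out 1 library, with adjusted p up to 0.239, and kept it without untreated control-vector library 3, treated control-vector library 3 or untreated knockdown library 3. POLR1C lost its call in 8 of the 12 (edgeR adjusted p up to 0.125) and RRP12 in 7 (up to 0.117). FTSJ3 and WDR12 lost theirs without treated control-vector library 1 or 2 (up to 0.0889 and 0.0822). TCOF1 (up to 0.0672) and RRP9 (up to 0.0714) lost theirs without untreated control-vector library 2 or 3. In knockdown cells RRN3 lost its call in 5 fits (edgeR adjusted p up to 0.171), FTSJ3 in 5 (up to 0.138), PPAN in 5 (up to 0.117) and UBTF in 4 (up to 0.0961). GAR1 lost its call without treated knockdown library 1 or 3 (up to 0.0818). BOP1 (up to 0.0762) and NHP2 (up to 0.0653) lost theirs in 3 fits, namely without untreated knockdown library 2 or 3 or treated knockdown library 2. MYBBP1A lost its call without untreated knockdown library 3 or treated knockdown library 2 (up to 0.0636). LYAR, NOP16, NOLC1, NOP56, FBL, NCL, NOP14, RRP1B and POLR1A kept theirs in both responses in all 12 fits.

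Knockdown and control vector did not differ past the threshold in untreated cells for any of the 39 genes by edgeR, where 1.02% of all genes were higher and 0.566% lower. At an unadjusted p below 0.05, which 9.7% of all genes met, there was 1 member, POLR1E, and DESeq2 called 0. The members' median log2 fold change was -0.04, and they ranged from -0.20 to 0.10. Same-numbered untreated libraries of the 2 kinds of cell had deviations that correlated at 0.87, 0.18 and 0.81. Their rank correlations with GC content ran in the same order. They were -0.62, 0.31 and 0.59 in control-vector cells and -0.52, 0.19 and 0.47 in knockdown cells. The labels name no pairing, so whether the numbers mark pairs is not known. A fit of the untreated libraries alone, blocked by replicate number, was also added after seeing the data. In it 4 members passed: POLR1E (log2 fold change -0.14, edgeR adjusted p = 0.0294), FBL (-0.11, edgeR adjusted p = 0.0317) and RRP12 (-0.19, edgeR adjusted p = 0.00407) were lower, and DDX21 (0.09, edgeR adjusted p = 0.0440) was higher. That fit called 1714 genes in all, 5.55% of those tested lower and 5.7% higher. The untreated libraries alone without the block gave 255 genes and 0 members.

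Under fulvestrant, 10 of 39 members were lower in knockdown than in control-vector cells and 0 were higher, while 4.28% of all genes were higher and 2.74% lower. Their median log2 fold change was -0.22, and 36 of 39 were below 0. NOLC1 changed most among those called, by -0.37 (SE 0.05, edgeR adjusted p = 0.00212), followed by RRP1B by -0.35 (SE 0.07, edgeR adjusted p = 0.0111), NOP56 by -0.33 (SE 0.05, edgeR adjusted p = 0.0038) and LYAR by -0.31 (SE 0.07, edgeR adjusted p = 0.0171). POLR1B, NOP2, NCL, NOP58, POLR1E and NOP14 were also called, with log2 fold changes from -0.31 to -0.20. BOP1 (-1.05), MYBBP1A (-0.76), PPAN (-0.65) and TCOF1 (-0.62) had larger values, but their libraries overlapped and they were not called. Treated knockdown libraries lay wholly below treated control-vector ones for 16 members and above for 1, against 8.29% and 15.3% of all genes.

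**Figure D3:**
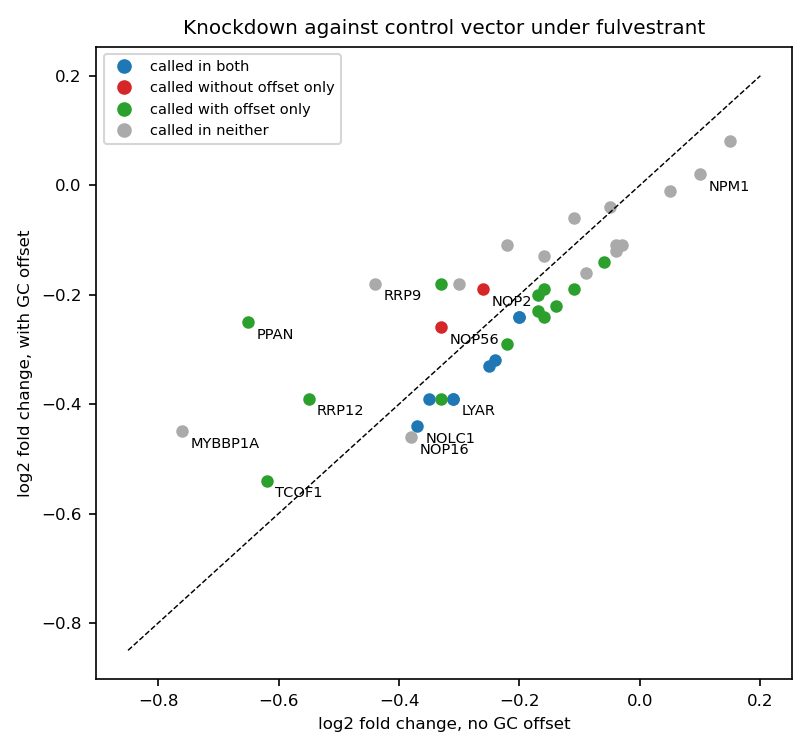
Log2 fold change of 38 members between knockdown and control vector under fulvestrant, without (x axis) and with (y axis) an offset for transcript GC content, coloured by whether each fit calls the gene. With the offset 13 more genes are called, 2 called genes (NOP56 and NOP2) drop out, and MYBBP1A, PPAN and RRP9 lie above the dashed line of equal values with smaller changes under the offset.

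That count depends on single libraries and on the GC trend. It was 14, with 1 member, NOP10, higher, without treated control-vector library 3, and 4 without treated control-vector library 2, treated knockdown library 1 or treated knockdown library 3. LYAR lost its call in 4 of these 12 fits (edgeR adjusted p up to 0.0861), NOP14 in 4 (up to 0.115), NCL in 3 (up to 0.123), POLR1E in 8 (up to 0.155), NOP58 in 6 (up to 0.192) and POLR1B in 4 (up to 0.156). Fitting only the 6 treated libraries gave 2, NOLC1 and NOP56. With the GC offset it was 21 of 38, of which 8 are among the 10, where 11.5% of all genes were lower. Over all genes that offset turned the calls from 672 higher and 431 lower to 1357 higher and 1764 lower. Leaving out the 4 libraries farthest along the GC trend gave 20 lower and 1, NOP10, higher, where 10.8% of all genes were lower and 8.3% higher.

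**Figure D4:**
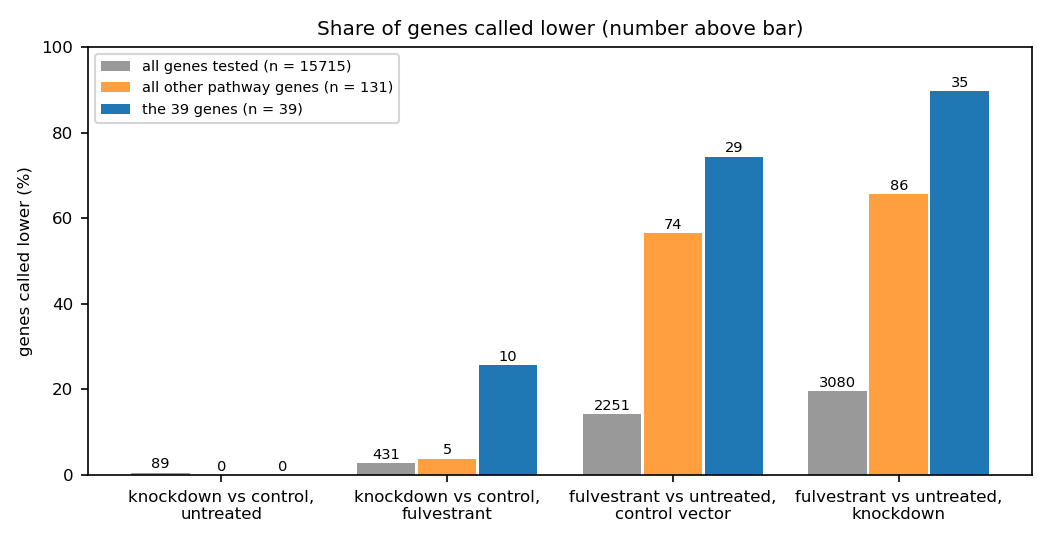
Percent of genes called lower (y axis) in the 4 pairwise comparisons, for all 15715 genes tested (grey), 131 other pathway genes (orange) and the 39 genes (blue), with the number of genes above each bar. The blue bars reach 74.4% and 89.7% in the fulvestrant responses, 25.6% between knockdown and control vector under fulvestrant and 0% untreated.

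The difference between the fulvestrant responses, knockdown minus control vector, passed for 0 of 39 members by edgeR and 0 by DESeq2, where 0.0127% of all genes passed in each direction. At an unadjusted p below 0.05, which 7.45% of all genes met, there were 8 members. The median difference was -0.20, and 33 of 39 were below 0. The smallest p-values were those of NOP14, with a difference of -0.27 (SE 0.06, edgeR adjusted p = 0.193), NOLC1 with -0.29 (SE 0.07, edgeR adjusted p = 0.262), NCL with -0.24 (SE 0.07, edgeR adjusted p = 0.283) and LYAR with -0.34 (SE 0.09, edgeR adjusted p = 0.283). With the GC offset 8 members passed, all with a larger fall in knockdown cells: NOLC1, NCL, NOP14, LYAR, POLR1B, DDX21, NOP58 and WDR43. In that fit 2.64% of all genes passed in this direction. With the 4 libraries farthest along the GC trend left out, 1 passed, TCOF1, beside 0.241% of all genes in this direction.

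Other genes of the pathway, 131 on 4 lists, were all tested. In control-vector cells 122 of them were below 0, and in knockdown cells 120, with log2 fold changes of up to 0.41 and 0.38. In control-vector cells 74 fell and 0 rose (median -0.33), and in knockdown cells 86 fell and 1, POLR1D, rose (median -0.45). By list, the falls in control-vector and knockdown cells were 3 and 5 of 13 for the rest of the Pol I machinery, 33 and 35 of 52 for small subunit processing, 28 and 36 of 49 for large subunit processing, and 10 and 10 of 17 for the exosome and rRNA trimming. The shares were 56.5% and 65.6% for all 131, against 14.3% and 19.6% of all genes. For the rest of the Pol I machinery they were only 23.1% and 38.5%. POLR1G, a Pol I subunit, had log2 fold changes of -1.01 (SE 0.16, edgeR adjusted p = 0.000846) and -1.48 (SE 0.16, edgeR adjusted p = 4e-05). RRS1, a factor that loads 5S RNA, had -0.63 and -1.14, NOL6 had -0.69 and -0.99, and the exosome subunit EXOSC2 had -0.60 and -0.68. PWP2 fell by 1.08, CCDC86 by 1.12, POLR2F by 0.86 and EXOSC9 by 0.63 in knockdown cells, and POLR2H fell by 0.48, IMP4 by 0.69 and MPHOSPH6 by 0.51 in control-vector cells. Between knockdown and control vector under fulvestrant 5 were lower (3.82%), against 2.74% of all genes. None passed untreated or for the difference of the responses by edgeR without the GC offset. There, 1 and 6 had an unadjusted p below 0.05, where 9.7% and 7.45% of all genes did, and DESeq2 called 0 in both. With the GC offset 60 of the 129 with a known GC content were lower between knockdown and control vector under fulvestrant, against 11.5% of all genes. In that fit 1 was lower untreated and 6 for the difference, where 2.64% of all genes were. The falls with fulvestrant numbered 97 and 105 there, against 23.9% and 28.3% of all genes.

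Genes outside the pathway that bear on the comparison were read in the same fit. GREB1, an estrogen-induced gene, went from 41.0, 44.1 and 38.5 CPM to 5.82, 6.03 and 5.82 CPM in control-vector cells, and from 64.1, 65.4 and 69.0 CPM to 5.70, 5.28 and 5.92 CPM in knockdown cells. Knockdown against control vector, it had 0.68 untreated (SE 0.07, edgeR adjusted p = 0.000358) and -0.07 under fulvestrant (SE 0.07, edgeR adjusted p = 0.695). The difference of its fulvestrant responses was -0.75 (SE 0.10, edgeR adjusted p = 0.0478). MYC was at 192, 207 and 231 CPM in untreated control-vector cells and 161, 139 and 107 CPM after fulvestrant. In knockdown cells it was at 191, 209 and 208 CPM untreated and 112, 89.1 and 110 CPM after fulvestrant. It fell in both kinds of cell without overlap, with log2 fold changes of -0.63 (SE 0.14, edgeR adjusted p = 0.00686) and -0.97 (SE 0.14, edgeR adjusted p = 0.000294). Between knockdown and control vector under fulvestrant it had -0.39 (SE 0.14, edgeR adjusted p = 0.125). Whether MYC bears on the members was not tested. ESR1, the estrogen receptor gene, rose by 0.20 in control-vector cells (SE 0.05, edgeR adjusted p = 0.00834) and by 0.38 in knockdown cells (SE 0.05, edgeR adjusted p = 7.55e-05) on the log2 scale. It was higher in knockdown than in control-vector cells, by 0.29 untreated (SE 0.05, edgeR adjusted p = 0.00866) and 0.47 under fulvestrant (SE 0.05, edgeR adjusted p = 0.000244). Whether these differences of GREB1 and ESR1 bear on the members was not tested. CDKN1A, a p53 target that stops the cell cycle, rose by 0.40 in control-vector cells (SE 0.12, edgeR adjusted p = 0.0348) and had 0.13 in knockdown cells (SE 0.13, edgeR adjusted p = 0.421). The difference between those changes was -0.26 and did not pass (SE 0.18, edgeR adjusted p = 0.859). Between knockdown and control vector CDKN1A had -0.46 untreated (SE 0.13, edgeR adjusted p = 0.146) and -0.72 under fulvestrant (SE 0.13, edgeR adjusted p = 0.00666).

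Of the members, 9 hold snoRNA genes within their bounds in GENCODE annotation of GRCh38, 34 in all. TAF1D holds 8, GNL3 6, NOP56 5, NOP58 4, and NCL and WDR43 3 each. The hosts' median log2 fold changes were -0.44 and -0.65 in control-vector and knockdown cells, and those of the other 30 members -0.48 and -0.66.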

How the data were processed

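Total RNA from 12 PEO1 libraries was made into stranded mRNA libraries from 500 ng with 9 PCR cycles, per the labels' protocols. The deposited table holds expected counts per gene, as whole numbers and not normalized, per the file headers. RSEM 1.3.3, Bowtie2, cutadapt and MultiQC with GRCh37/hg19 are named in the submitters' processing notes, which give no annotation, settings or strand use. RSEM divides reads between matching transcripts, which makes near copies less certain. 6 columns matched no sample and were not used.

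In R 4.3.3, edgeR 4.0.16 (TMM, filterByExpr, robust quasi-likelihood) fitted 1 mean per group to all 12 libraries, and 5 contrasts were tested at an adjusted p of 0.05. SE is the log2 fold change over the root of F. The code was tested on simulated data: for the fulvestrant comparison in control-vector cells, with 15715 genes, 19% of genes changed by 0.5 and 66% changed by 1 (log2) were recovered, with 10 false calls. Only 100 genes of each size were changed, far fewer than the 4363 called in the data. The adjusted threshold was therefore stricter there, and these shares do not give the power in the data. Alternatives were RLE factors, DESeq2 1.42.0, no filter, only the libraries compared, a replicate block, a GC offset (spline, 5 df), both, and leaving out each library. Named members are the 4 of largest change per direction and comparison among those called, the 4 of smallest p for the difference, and POLR1A, UBTF, RRN3, FBL, NCL and NPM1. From each other list come the 2 of largest change per response among those called with mean log2 CPM of at least 1. Other members and the checked genes GREB1, MYC, ESR1 and CDKN1A are given beside them. The level of the targeted gene is not reported here. The members, lists and tests were chosen with earlier results of these data known.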

Additional observations from a re-analysis of the deposited data

How the results depend on the processing

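No called value of a member changed sign under the alternatives run. Among values not called, 43 did, in 26 pairs of a gene and a comparison, such as TAF1D between knockdown and control vector under fulvestrant, at 0.05 and, with the GC offset, -0.01. With each library left out in turn, members lower with fulvestrant numbered 24 to 30 in control-vector cells and 29 to 37 in knockdown cells. Among all genes, 1542 to 2689 and 2484 to 3765 were lower in those fits. Calls of all genes in either direction numbered 3102 to 4417 and 5165 to 7429. In control-vector cells calls in either direction rose from 4363 to 6719 with the GC offset. For single members, 3645 values kept their side of the threshold, 110 passed newly and 135 no longer passed.

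For knockdown against control vector under fulvestrant, the members called were 6 without the filter, 2 in the libraries compared alone, 21 with the GC offset, 20 with the GC offset and replicate block, 21 without the 4 libraries lying farthest along that GC trend, and 4 to 15 leaving out each library. All genes called, 1103, became 229 in the libraries compared alone, 620 with the replicate block, 3121 with the GC offset, 2644 with both, 3003 without those 4 libraries, and 456 to 2270 leaving out each library.

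In untreated cells the members called, 0, became 2 with the GC offset and 4 with the replicate block in the untreated libraries alone, and stayed 0 leaving out each library. All genes called, 249, became 145 with the replicate block, 1005 with the GC offset, 703 with both, 425 without the 4 libraries, 1714 with the block in the untreated libraries alone, and 126 to 319 leaving out each library. For the difference of the responses the members called, 0, became 8 with the GC offset, 8 with both, 1 without the 4 libraries, and stayed 0 leaving out each library. All genes, 4, became 35 by DESeq2, 0 without the filter, 0 with the replicate block, 591 with the GC offset, 372 with both, 62 without the 4 libraries, and 0 to 7 leaving out each library. The share of calls that were higher fell from 60.9% to 43.5% with the GC offset for knockdown against control vector under fulvestrant, from 64.3% to 52.5% untreated, and from 50% to 31.3% for the difference. The causes were not tested.

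The replicate block in all 12 libraries gave 25 and 31 members lower in the fulvestrant responses and 7 between knockdown and control vector under fulvestrant. Among all genes, that fit called 1861, 2624 and 246 lower in these comparisons. The correlation of same-numbered libraries was positive for every number only between the untreated groups. Other pairs of groups had values of both signs, such as -0.93, 0.59 and -0.90 between untreated and treated control-vector cells. In the treated groups the correlations were 0.77, -0.79 and -0.89. The widest spread between libraries, that of BOP1, PPAN and MYBBP1A, limits what 3 libraries a group can show for them.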
